A study of Mus musculus with 65 samples.

Results

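TAL1 sites between genes are the stretches of the mouse genome where TAL1 was repeatedly called bound in G1E-ER4+E2 cells, away from coding genes, their starts and CTCF. For the 10 TAL1 ChIP-seq libraries that the study assessed as Pass, peaks overlapping by 1 bp or more were joined, and joined intervals called in 5 or more of those libraries were kept as recurrent sites. Members overlapped no protein-coding gene body, lay more than 1000 bp from every protein-coding transcript start and overlapped no peak of CTCF library 695. There were 1278 members among 4568 recurrent sites, or 28.0%. Of the other recurrent sites, 2473 lay in gene bodies, 577 lay at promoters (within 1000 bp of a coding start) and 240 overlapped a CTCF peak. The members were thus selected on the calls of the Pass libraries, so their number of calls, fold enrichment and rank in those libraries, and their lack of CTCF in library 695, are given as a description without a test.

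The study asked how chromatin fragment length and cell number affect ChIP-seq for CTCF and TAL1. G1E-ER4 is a mouse erythroid line derived from embryonic stem cells that lack Gata1 and carries GATA1 fused to the ligand-binding part of the estrogen receptor. All TAL1 libraries came from this line, grown with kit ligand and erythropoietin and matured with β-estradiol at 1e-08 mol/L for 24 hours (+E2), and no library of uninduced cells was used here. TAL1 libraries were judged Pass (10), Low pass (4) or Fail (5) by the study. Their average chromatin lengths were 190 to 298 bp (Pass), 176 to 289 bp (Low pass) and 166 to 297 bp (Fail). The paper states that some of its retrospective TAL1 experiments used a different fixative. CTCF was mapped in 11 further libraries of LSK, CMP, GMP, MEP, CFUE, ERY, CFUMk and iMK cells sorted from the bone marrow of C57BL/6 males aged 5 to 8 weeks. The line is a cell culture model in which GATA1 activity is switched on from a transgene. Nothing in the labels says that its libraries came from separate cultures. The p-values of tests over sites hold no spread between libraries. Those of tests over libraries measure that spread, which may thus be technical. That spread also spans the different chromatin lengths, so the TAL1 libraries are not replicates of a single condition.

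TAL1 is a basic helix-loop-helix transcription factor that is needed to form blood stem cells and red cells. It binds DNA as a dimer with an E protein at E-boxes, and in erythroid cells it sits in a complex with GATA1, LMO2 and LDB1. That complex is known for recognising a composite element in which the E-box end CTG stands a short distance before the GATA1 word AGATAA, and many such elements lie in enhancers far from the genes they serve.

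The sequences below, read from the RefSeq GRCm38.p6 genome (mm10), show the composite element in members that recur in the results, each on the strand that carries it. Capitals mark CTG and AGATAA, with 22 bases of flank on each side. The sites near Serbp1, Cebpe and Atp2b4 are among the 10 highest ranked members, the Hbb-y and Olfr66 sites lie upstream of the β-globin genes, and the Bpgm site lies upstream of the gene of an erythrocyte glycolytic enzyme.
Serbp1 site, chr6:67161647-67161707, minus strand: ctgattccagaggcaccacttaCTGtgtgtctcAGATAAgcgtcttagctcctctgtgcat
Cebpe site, chr14:54706016-54706076, minus strand: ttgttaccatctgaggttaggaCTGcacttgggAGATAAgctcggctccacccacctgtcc
Atp2b4 site, chr1:133825751-133825811, plus strand: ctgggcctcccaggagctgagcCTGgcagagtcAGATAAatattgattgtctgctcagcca
Hbb-y site, chr7:103859230-103859289, plus strand: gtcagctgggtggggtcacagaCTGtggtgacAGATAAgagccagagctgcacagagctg
Olfr66 site, chr7:103877213-103877273, plus strand: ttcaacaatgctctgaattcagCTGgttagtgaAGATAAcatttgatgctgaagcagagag
Bpgm site, chr6:34471632-34471692, minus strand: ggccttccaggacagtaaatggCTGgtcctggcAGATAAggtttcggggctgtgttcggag

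Strong members also lacked the exact element. The 300 bases at the centre of 3 of them are shown on the plus strand, with each GATA word (AGATAA or TGATAA, or either ending in AG for AA, on either strand) and each CAGCTG in capitals. The Hdgf site holds TGATAA at 2 positions and no CAGCTG, the Pdzk1ip1 site downstream of Tal1 holds TGATAA followed closely by CAGCTG, and the Slc4a1 site holds CAGCTG at 2 positions and no such GATA word.
Hdgf site, chr3:87901280-87901579: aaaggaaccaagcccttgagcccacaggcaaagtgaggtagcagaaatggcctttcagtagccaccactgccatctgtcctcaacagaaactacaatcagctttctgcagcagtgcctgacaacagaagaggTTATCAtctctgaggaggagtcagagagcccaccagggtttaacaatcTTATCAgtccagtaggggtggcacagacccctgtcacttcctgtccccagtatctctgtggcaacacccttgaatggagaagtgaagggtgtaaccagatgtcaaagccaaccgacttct
Pdzk1ip1 site, chr4:115095741-115096040: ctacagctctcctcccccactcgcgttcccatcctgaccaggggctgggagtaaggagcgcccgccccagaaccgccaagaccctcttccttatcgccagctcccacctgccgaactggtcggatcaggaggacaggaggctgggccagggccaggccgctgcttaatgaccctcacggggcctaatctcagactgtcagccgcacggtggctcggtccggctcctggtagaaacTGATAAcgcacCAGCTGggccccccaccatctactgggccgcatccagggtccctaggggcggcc
Slc4a1 site, chr11:102375204-102375503: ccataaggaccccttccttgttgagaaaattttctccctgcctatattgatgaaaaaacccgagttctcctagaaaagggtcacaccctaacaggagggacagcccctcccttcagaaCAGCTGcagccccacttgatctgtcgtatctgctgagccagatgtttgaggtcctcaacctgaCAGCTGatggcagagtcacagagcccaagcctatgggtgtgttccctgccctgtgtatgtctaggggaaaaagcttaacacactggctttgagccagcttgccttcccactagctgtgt

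The Pass lists held 2670 to 9763 peaks each, the Low pass lists 1212 to 2751 and the Fail lists 204 to 606. All peaks were used as deposited, and the lists give no read counts, so depth is unknown. The antibody label of library 436 names CTCF while its title names TAL1. Of its 4486 peaks, 97.7% overlapped a peak of another TAL1 Pass library and 4.26% a peak of CTCF library 695, and its title was followed.

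Members were broad calls of 601 to 3020 bp with a median of 1030 bp, against 1030 bp for sites in gene bodies and 1020 bp at promoters. The members called in all 10 Pass libraries numbered 534, or 41.8%, where 41.1% of all recurrent sites were. The numbers called in 5, 6, 7, 8 and 9 libraries were 153, 145, 136, 133 and 177. Within each library every peak was given a percentile rank by its fold enrichment over background, so that a rank of 99 means that 99% of that library's peaks were weaker. The median rank of a member over the libraries that called it had a median of 54.4 between genes, 54.1 in gene bodies and 56.9 at promoters. Members called in all 10 libraries had a median rank of 78.2 and those called in 5 libraries 37.5. The 153 members just inside the threshold (5 libraries) had ranks of 2.24 to 73.3 and a median fold enrichment of 10.6, against 3.05 to 69.6 and 10.1 for the 270 sites between genes just outside it (4 libraries, median rank 33.7). The member nearest to a coding start lay 1019 bp away with a rank of 36.9, and the promoter site outside genes that was farthest from a start lay 981 bp away with a rank of 44.9.

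The 10 members ranked highest were chosen among those called in all 10 Pass libraries. Every Low pass library called them too. They lay 4.21 to 104 kb from the start of the gene they are named after here, which is the coding gene with the nearest start. The strongest lay 4.21 kb upstream of Hdgf, which encodes a heparin-binding growth factor. Its fold enrichment was 48.8 at the lowest, 85.9 at the median and 144 at the highest over the 10 Pass libraries. It reached 30.5, 42.1, 63.8 and 28.1 in the Low pass libraries 584, 585, 671 and 705. In the Fail libraries 505, 581, 582, 670 and 706 it was 43.0, 12.4, 7.45, 13.8 and 13.0, and it was the only member called in all 5 of them. Fold enrichment depends on the depth of a library, so these values place a site within each list and do not compare lists.

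The site 6.53 kb downstream of the start of Pdzk1ip1, a small membrane protein gene, lies 35.7 kb downstream of the start of Tal1 itself (chr4:115095251-115096639). Its fold enrichment over the Pass libraries was 50.3 at the lowest, 72.0 at the median and 126 at the highest, and its rank never fell under 99.4. The Low pass libraries 584, 585, 671 and 705 gave it 29.3, 19.7, 41.6 and 38.5, and 2 Fail libraries called it. A CTCF peak of library 695 lay 0.380 kb away. Another top member, 19.8 kb upstream of Ccnq (a cyclin gene), had a median fold enrichment of 70.4 and a median rank of 99.8. The member 21.7 kb upstream of Prrc2b had 74.5 and 99.8.

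Serbp1, an mRNA-binding protein gene, was the nearest gene to a top member that lay 104 kb upstream of its start and overlapped the long non-coding gene A430010J10Rik. That member had a median fold enrichment of 68.5 and was called in 3 Fail libraries. The others of the 10 lay 21.3 kb upstream of Mrvi1, 6.10 kb upstream of Slc2a9 (a urate transporter), 73.1 kb upstream of Herc1 (a ubiquitin ligase), 5.53 kb downstream of the start of Cebpe (a transcription factor of granulocytes) and 23.9 kb upstream of Atp2b4 (the plasma membrane calcium pump of red cells). Their median ranks ran from 98.9 to 99.6. Their lowest ranks in any Pass library were 94.0 for the Slc2a9 site and 96.0 for the Cebpe site, as the plot of ranks by library shows.

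**Figure D1:**
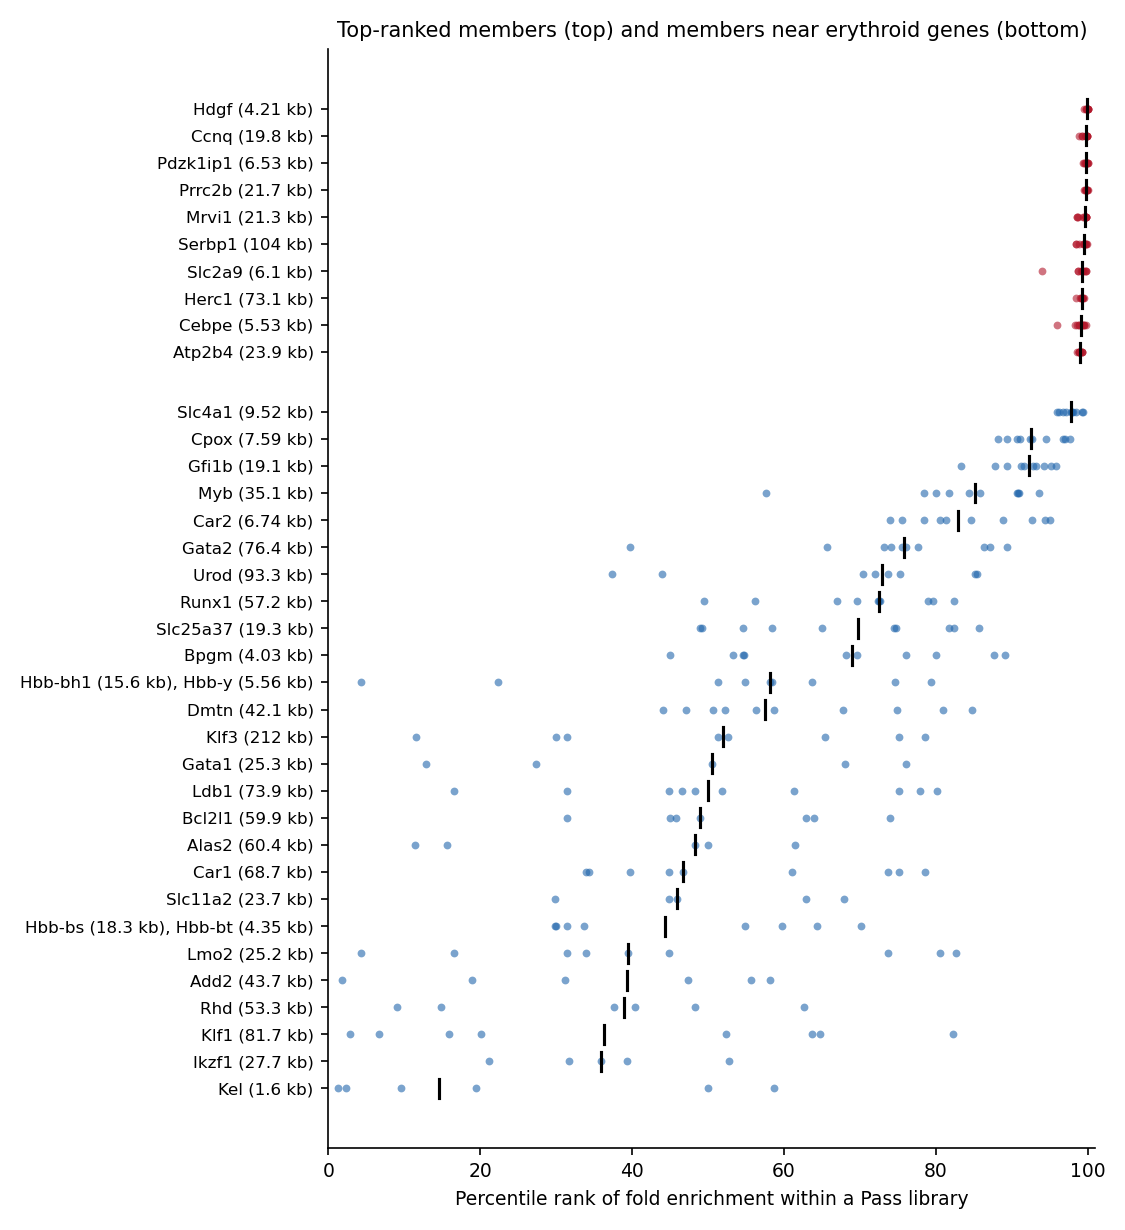
Percentile rank of fold enrichment (x axis, 0 to 100) of each named member in the Pass libraries that called it (points, up to 10), with the median as a black line. The 10 top-ranked members (red, labelled with the nearest coding gene and its distance) stay at 94.0 or above in every library, while members near erythroid genes (blue, labelled with the erythroid gene and its distance) sit anywhere from 1.33 upward, with a range of 96.0 to 99.4 for Slc4a1 and of 1.33 to 58.7 for Kel.

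The rule did not use the Low pass and Fail libraries. The Low pass libraries 584, 585, 671 and 705 called 32.0%, 24.0%, 56.3% and 33.5% of the members. In the Fail libraries 505, 581, 582, 670 and 706 the shares were 6.89%, 0.939%, 0.235%, 3.29% and 1.25%. Every Low pass library was above every Fail library, and the mean shares were 36.4% and 2.52% (difference 33.9 percentage points, exact permutation test, two-sided, n = 4 and 5, p = 0.00794, adjusted p = 0.0159 over 8 tests). Among members called in all 10 Pass libraries the difference was 65.2 percentage points. The p over all members is the smallest that the design allows, and the study made its assessment on peaks, so the assessment and this share are not independent.

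At least 1 Low pass library called 780 members (61.0%, against 61.6% of all recurrent sites), and all 4 called 220 (17.2%, against 18.4%). At least 1 Fail library called 117 members (9.15%, against 9.04%). In these counts the members were close to the background of all recurrent sites. Between genes and in gene bodies the share called differed by 0.429 ± 1.15 percentage points (SD, n = 9 libraries), with means of 17.6% and 17.2% and members higher in 6 of 9 libraries (exact sign-flip permutation test, two-sided, p = 0.305, adjusted p = 0.305). Without library 580 among the lists that define the sites, the difference was -0.0174 percentage points. Against promoter sites the members were called less often, by -1.74 ± 1.18 percentage points on average, with means of 17.6% and 19.3% (exact sign-flip permutation test, n = 9, p = 0.00781, adjusted p = 0.0159). Library 582 was the exception, with 0.235% of members and 0 promoter sites called. With only sites more than 5000 bp from a start counted as members, and promoters widened to match, the difference was -0.455 percentage points (adjusted p = 0.183, exact permutation test). In the Pass libraries, which defined the sites, the difference from promoters at 1000 bp had no single direction. It ran from -6.10 (library 702) to 5.11 percentage points (library 583) and was not tested.

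**Figure D2:**
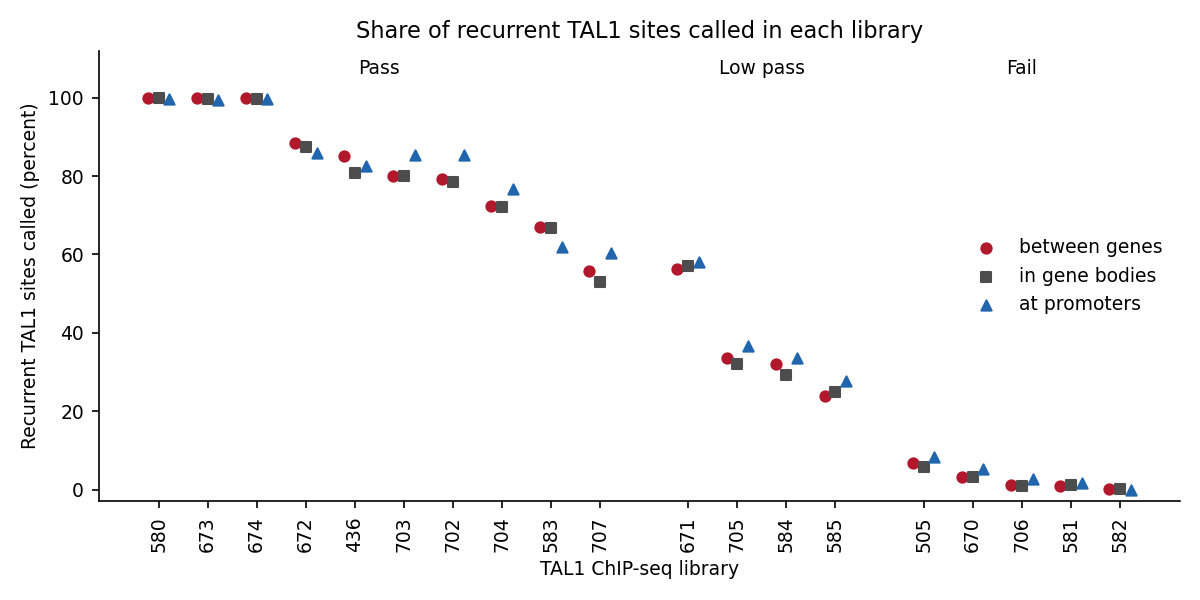
Share of recurrent TAL1 sites called (y axis, percent) in each of the 19 TAL1 libraries (x axis, by library number and assessment), for sites between genes (circles), in gene bodies (squares) and at promoters (triangles). Each library calls similar shares of all 3 kinds, from 99.9% of members in library 580 to 0.235% in library 582, and promoters sit above members in 8 of the 9 Low pass and Fail libraries.

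Calling in the Low pass libraries followed the rank in the Pass libraries. Members were split by rank into 4 classes of 319 or 320. In the highest class (74.1 to 99.9), 99.7% were called in at least 1 Low pass library and 65.0% in all 4. The classes below had 83.7%, 40.1% and 20.6% called in at least 1. Fail libraries called 33.4% of the highest class and 2.19%, 0.627% and 0.312% of the others. Over all recurrent sites of any rank, 61.6% were called in at least 1 Low pass library, 18.4% in all 4 and 9.04% in at least 1 Fail library. Other recurrent sites were not split by rank, so the trend is not shown to be particular to members. Besides the Hdgf site, no member was called in more than 3 Fail libraries, and 8 were called in 3, near Ccnq, Serbp1, Atp2b4, Mki67, Gm9844, Adra2a, Ube2h and Cpeb4. Mki67, the proliferation marker, has its member 4.87 kb upstream, and Ube2h, a ubiquitin-conjugating enzyme gene that is strongly expressed in maturing red cells, has its member 2.49 kb upstream.

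The distance from a member to the nearest coding start had a median of 19.1 kb and quartiles of 7.63 and 50.7 kb, against a median of 13.6 kb for sites in gene bodies. The rule sets the lower bound of this distance, so it is a description. Members 1 to 5 kb away numbered 221, members 5 to 10 kb away 173, members 10 to 50 kb away 558 and members 50 to 100 kb away 196. A further 130 members (10.2%) lay more than 100 kb from any coding start, and 9 lay more than 500 kb away. On the upstream side of the nearest start were 902 members (70.6%) at a median of 14.9 kb, and on the downstream side, beyond the gene's end, 376 at 35.0 kb. The rule removed sites inside gene bodies, which lie downstream of a start, so this split is a description too.

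**Figure D3:**
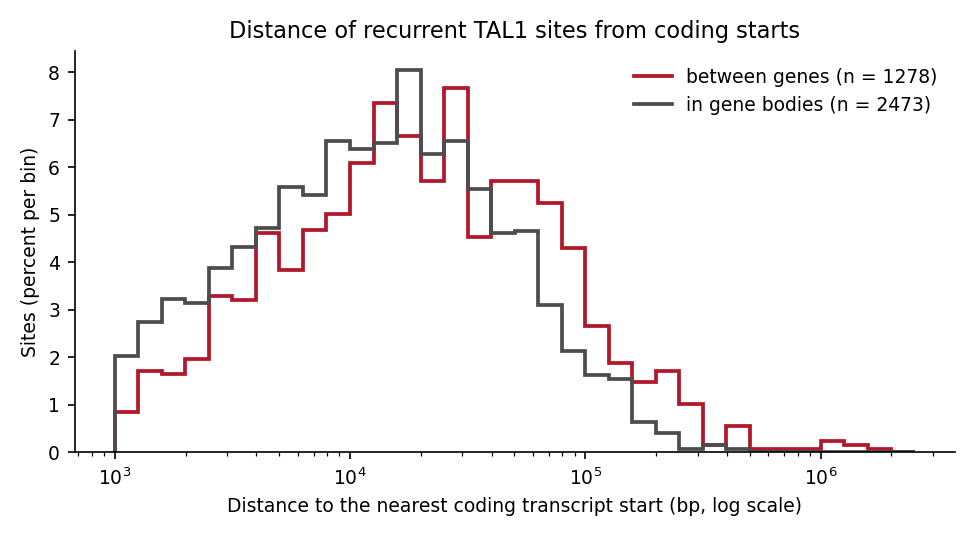
Distance from each recurrent TAL1 site to the nearest coding transcript start (x axis, bp, log scale) against the share of sites per bin (y axis, percent), for the 1278 members (red) and the 2473 sites in gene bodies (grey). Members peak between 10 and 50 kb and have a longer tail, with 130 of them more than 100 kb away.

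The 5 most distant members lay in gene deserts. The farthest was 1880 kb from the nearest coding start, between Hace1 and Grik2 (chr10:47453157-47454106), with a median fold enrichment of 12.6 over 8 Pass libraries. The next lay 1410 kb from Efna5, an ephrin gene, with 14.7 over all 10 Pass libraries. The third lay 1350 kb from Cdh8, a cadherin gene, with 12.2 over 5 libraries. The fourth was 1130 kb from Dsc3, a desmosome gene, with 7.69 over 7 libraries. The last was 1120 kb upstream of Cited2, a transcriptional coregulator gene, and was the strongest, with 24.0 over all 10 libraries and calls in 3 Low pass libraries. These sites ranged from a median rank of 21.0 (Dsc3) to 84.4 (Cited2).

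Most members overlapped no annotated gene of any kind (1030, or 80.6%). Long intergenic non-coding RNA genes were overlapped by 149 members, antisense genes by 36 and processed transcripts by 35. The nearest CTCF peak of library 695 was at a median of 18.5 kb from members and 18.9 kb from sites in gene bodies.

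The 1278 members had 970 nearest coding genes, and 751 of these genes were nearest to a single member. Klf13 (a Krüppel-like transcription factor), Phlda1 and Pik3r1 (a regulatory subunit of phosphoinositide 3-kinase) were each nearest to 7 members. Pim1, a serine/threonine kinase downstream of cytokine receptors, and Eapp were nearest to 6, and Podxl and Prkar2b to 5. The 11 genes nearest to 4 members included Myc, Odc1 (the rate-limiting enzyme of polyamine synthesis), Cpeb4 (an mRNA-binding protein of terminal erythroid maturation) and Atp2b4.

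Erythroid regulator genes were the nearest coding gene of 10 members, or 0.782%, against 1.12% of all recurrent sites and a share of 0.0916% of all coding genes. These 10 lay nearest to Lmo2 (3 members), Myb (2), Runx1 (2), Klf3 (2) and Ikzf1 (1), which is 5 of the 20 listed genes. Genes for red cell products were nearest to 13 members, or 1.02%, against 1.53% of all recurrent sites and 0.202% of coding genes. They were 9 of 44 annotated genes, among them Hbb-y with 3 members, Add2 and Car2 with 2 each, and Hbb-bt, Slc4a1, Cpox, Kel and Bpgm with 1 each. Of the lists for other cells, the 15 megakaryocyte genes had 1 member (Gp9), or 0.0782%, against 0.241% of all recurrent sites and 0.0687% of coding genes. The 11 granulocyte and monocyte genes had 1 (Cebpe), or 0.0782%, against 0.0876% and 0.0504%. Stem and progenitor genes, hepatocyte genes and neuron genes (10 each, or 0.0458% of coding genes) had none. These lists were nearest to 0.131%, 0.0219% and 0.0438% of all recurrent sites. Lists this short hold so few genes that an absence of members is uninformative. Nearest-gene counts depend on gene spacing, and no test was made of them.

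Looking from the genes instead, 11 of the 20 regulator genes and 19 of the 44 product genes had a member within 100 kb of their start or as the nearest gene, or 55.0% and 43.2%, against 15.0% of all 21827 coding genes. The 19 product genes shared 17 sites, since neighbouring globin genes were given the same member. The genes were listed with results known, and no test was made of these shares. The Tal1 member described above was the highest ranked of any regulator. Among regulators, Gfi1b (a transcriptional repressor of the erythroid and megakaryocyte lineages) had a member 19.1 kb downstream of its start with a median rank of 92.2 and a median fold enrichment of 34.6, called in all 10 Pass and all 4 Low pass libraries. The member nearest to Myb, a regulator of progenitor growth, lay 35.1 kb upstream toward Hbs1l. It had a median rank of 85.1, and a fold enrichment of 11.6 at the lowest, 23.9 at the median and 53.8 at the highest. In the Low pass libraries 584, 585, 671 and 705 it reached 7.33, 9.51, 15.3 and 7.21, and no Fail library called it.

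Gata2, the GATA factor of early progenitors, had a member 76.4 kb upstream with a rank of 75.8, and Runx1 had its nearest 57.2 kb upstream with a rank of 72.5. Members of middle or low rank lay near the regulators that remain. The Gata1 member, 25.3 kb upstream, held the composite element but was called in 5 Pass libraries only, with a rank of 50.5. Ldb1 (73.9 kb upstream, 10 libraries, rank 50.1), Lmo2 (25.2 kb upstream, 9 libraries, rank 39.5), Klf3 (212 kb upstream, rank 52.0), Klf1 (81.7 kb, with Junb nearer, rank 36.2) and Ikzf1 (27.7 kb upstream, rank 35.9) completed the list.

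Among product genes the highest ranked member (chr11:102374798-102375997) lay 9.52 kb upstream of Slc4a1, the band 3 anion exchanger of the red cell membrane. This member overlapped the long non-coding gene Bloodlinc. Its fold enrichment over the Pass libraries was 32.7 at the lowest, 47.0 at the median and 95.6 at the highest. In the Low pass libraries 584, 585, 671 and 705 it was 23.6, 19.0, 32.4 and 20.5. It was called in 2 Fail libraries and its lowest Pass rank was 96.0.

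Genes of heme synthesis were near members of different strength. Cpox, which encodes coproporphyrinogen oxidase, had a member 7.59 kb upstream with a median fold enrichment of 35.6 and a rank of 92.5, called in all Low pass and 2 Fail libraries. The member 60.4 kb upstream of Alas2, the erythroid enzyme of the pathway's opening step, had 12.8 and 48.3 in 5 libraries. Slc25a37, the mitochondrial iron importer, had 4 members within 100 kb, and the nearest, 19.3 kb upstream, ranked 69.7.

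Car2 (carbonic anhydrase) had 2 members upstream, at 6.74 and 8.15 kb, with ranks of 83.0 and 46.7. Bpgm had a member 4.03 kb upstream with a rank of 68.9. The lowest ranked of the members named here was the member 1.60 kb upstream of Kel, a blood group antigen gene, with a median fold enrichment of 9.33 and a rank of 14.5 over 6 libraries.

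Members within 10 kb of each other were joined into groups. Most stood alone (940), and 338 fell into 151 groups of 2 or more, of which 123 were pairs, 23 had 3 members and 5 had 4 to 6. Of the members, 413 (32.3%) lay within 10 kb of any other recurrent TAL1 site, against 32.4% of all recurrent sites. Grouped members had a median rank of 58.2 and single members 52.7, and 44.1% of the grouped and 41.0% of the single members were called in all 10 Pass libraries.

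The group of 5 lay upstream of Hbb-y, the embryonic β-like globin gene, over 18.9 kb between that gene and Olfr66 (chr7:103858778-103877694), where the locus control region of the β-globin genes is known to lie. From the gene outward the members were called in 9, 10, 7, 6 and 6 Pass libraries. Their median fold enrichments were 12.5, 14.6, 14.6, 23.9 and 11.7, and their ranks 58.2, 55.7, 58.4, 75.5 and 46.3. Low pass libraries called the member nearest to Hbb-y in 2 of 4 cases and its neighbour in 1, and the outer 3 in none. The composite element was present in the member nearest to Hbb-y and in the outer 2. A further member lay at the other end of the locus, 4.35 kb from the start of Hbb-bt, the adult globin gene, with a rank of 44.3 in 8 libraries.

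Near Pim1, 4 members lay within 10.8 kb, 42.7 to 51.5 kb upstream of the gene, and they were the strongest of the large groups. Their median ranks were 96.6, 91.5, 49.6 and 98.4, 3 were called in all 10 Pass and all 4 Low pass libraries, and the last was called in 2 Fail libraries with a median fold enrichment of 56.0. Beside Pik3r1, 4 members lay 139 to 146 kb from its start, with ranks of 96.0, 60.8, 48.3 and 62.5. Near March6, a ubiquitin ligase gene, 4 members lay 1.15 to 10.7 kb upstream, and the strongest had a rank of 91.3. That member (chr15:31533257-31534405) almost touched the member nearest to the gene (chr15:31532206-31533244, rank 25.2). They shared no base, so the rule counted them apart.

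The group of 6, between Eapp and Snx6 (chr12:54708643-54740305), differed in its sequence. None of its members was called in all 10 Pass libraries, their median ranks were 18.8 to 61.7, and each was called in at most 1 Low pass library.
In this group 4 of the 6 overlapped small nuclear RNA genes (Gm22634, Gm25679, Gm26444 and Gm22317), and 1 other member of all 1278, near Sirt4, overlapped a gene of that kind. Each of the 6 shared 90.0% to 100% of its 20-base words with the rest of the group, against 0% to 3.81% in the other large groups, and 0% upstream of Hbb-y. Short reads cannot always be placed among near-identical copies, and the part of read placement in these calls was not tested.

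Shared sequence was then looked for among all recurrent sites, a comparison chosen after values were seen. In 53 members (4.15%) at least 25% of the 20-base words in the central 300 bases recurred in another recurrent site, which held for 20 sites in gene bodies (0.809%) and 8 at promoters (1.39%). Of these members 26 came from a single family of 33 recurrent sites on 16 chromosomes, of which 6 others lay in gene bodies and 1 at a promoter. The 80 bases that follow show 4 of its members, with capitals on the reverse complement of AGATAG, present in all 33, and on CTG and AGATAA where the composite element is complete.
Hace1 site, chr10:47453700-47453779, plus strand: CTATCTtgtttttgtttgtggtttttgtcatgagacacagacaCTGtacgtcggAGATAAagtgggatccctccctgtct
Tmem29 site, chrX:150486481-150486560, plus strand: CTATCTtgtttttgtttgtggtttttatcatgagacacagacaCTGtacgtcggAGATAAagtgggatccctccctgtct
Gm14409 site, chr2:177252491-177252570, plus strand: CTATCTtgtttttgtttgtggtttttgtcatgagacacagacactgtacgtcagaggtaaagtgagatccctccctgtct
Alppl2 site, chr1:87079191-87079270, minus strand: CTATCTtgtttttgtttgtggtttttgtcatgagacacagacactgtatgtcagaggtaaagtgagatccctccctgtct

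The family holds the most distant member (Hace1) and the member assigned above to Alas2 (Tmem29). Its 26 members were of low to middle strength, with median ranks of 22.7 to 56.1 and median fold enrichments of 8.22 to 16.4. All 10 Pass libraries called 4 of them, at least 1 Low pass library called 9 and a Fail library called 1. A stretch of 43 bases was common to all 33 sites and occurred 64 times in the genome. Of these copies 55 (85.9%) lay inside a peak of at least 1 Pass library, and 34 (53.1%) inside a recurrent site. The stretch was derived from the recurrent sites of the family, so their copies lie inside peaks by selection. Only 6 of the 33 sites, 5 of them members, held the composite element. Whether reads of one copy were placed on another was not tested.

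The repeat content of the members differed from that of sites in gene bodies. RefSeq soft-masks repeats in lower case in the genome, and a site was counted as mostly repeat where at least 50% of its central 300 bases were masked. Of the members 99 (7.75%, Wilson 95% interval 6.40% to 9.34%, counting error only) were mostly repeat, against 3.92% in gene bodies and 4.62% of all recurrent sites. The difference was 3.82 percentage points (Fisher's exact test over 3751 sites, two-sided, p = 1.28e-06, adjusted p = 1.03e-05). In windows of the same length 10 kb to either side, 26.0% were mostly repeat beside members and 18.9% beside gene-body sites. The family above gave 26 of the 99, and without sites that shared sequence the difference was 2.05 percentage points (adjusted p = 0.0127, Fisher's exact test). The share was 3.44% in the highest of the rank classes and 9.69% in the lowest.

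Members carried the words of the GATA1 and TAL1 complex at their centres. Motifs were searched on both strands in the central 300 bases, and the same search was made in 2493 windows of the same length 10 kb to either side. AGATAA was present in 750 members (58.7%, Wilson 95% interval 56.0% to 61.4%), against 54.8% of all recurrent sites and 15.4% of flanking windows. Any of the 4 GATA words (AGATAA and TGATAA, or either ending in AG) was present in 1178 (92.2%, against 89.7% of all recurrent sites and 42.2% of flanking windows). The composite element, CTG followed after 7 or 8 bases by AGATAA, contains AGATAA itself and was present in 268 members (21.0%, interval 18.8% to 23.3%), against 18.0% of all recurrent sites and 0.562% of flanking windows. CAGCTG, an E-box, was present in 31.5% of members and 13.7% of flanking windows, and CAGATG in 28.1% and 23.3%. CCACACCC, a site of Krüppel-like factors, was in 4.54% of members (interval 3.53% to 5.82%) and 3.25% of flanking windows. TGANTCA, a site of NFE2 and AP-1, was in 10.3% (interval 8.78% to 12.1%) and 8.38%.

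**Figure D4:**
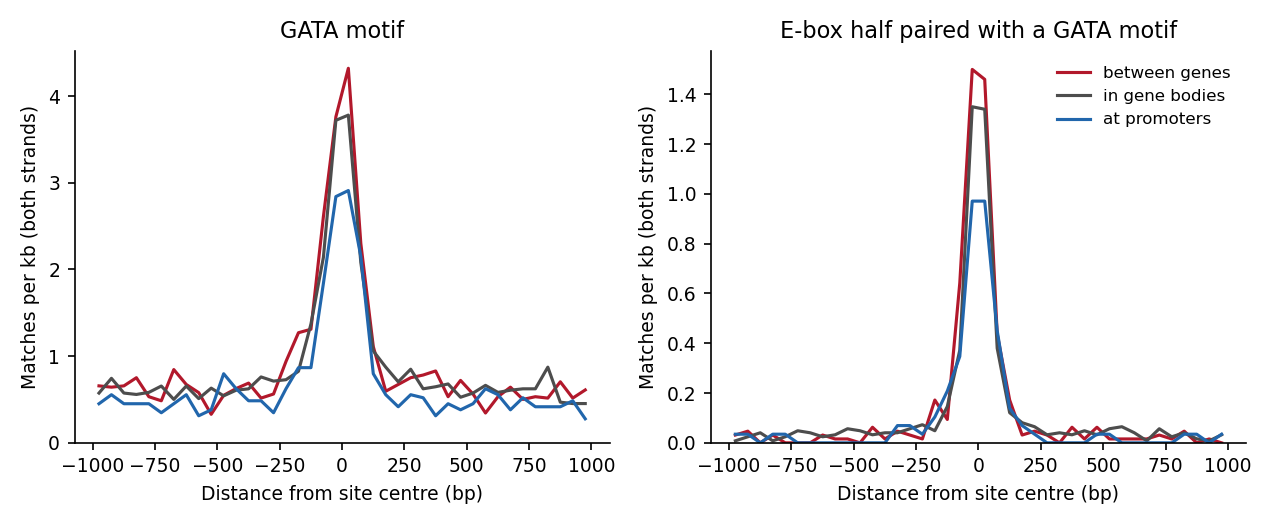
Matches per kb on both strands (y axes) by distance from the centre of the site (x axes, bp, bins of 50 bp) for the GATA motif AGATAA (left) and for CTG followed after 7 or 8 bases by AGATAA (right), for sites between genes (red), in gene bodies (grey) and at promoters (blue). Both are concentrated within about 100 bp of the centre, where AGATAA reaches 4.32 matches per kb in members, against 0.657 at -975 bp.

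The spacing within the composite element was narrow. With CTG before AGATAA on the same strand, 191 matches in members had 8 bases between the words, 82 had 7 and 47 had 9. The other gaps from 0 to 20 bases gave 18 to 42 matches each, with a median of 29.0. Summed over both flanking sides there were 11 matches with 8 bases and 4 with 7.

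**Figure D5:**
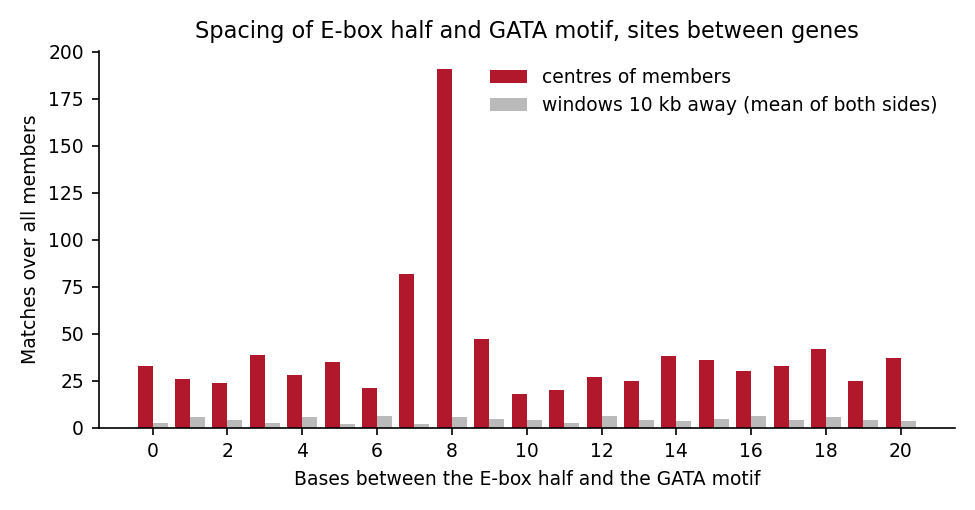
Number of matches over all 1278 members (y axis) by the number of bases between the E-box end CTG and the GATA motif AGATAA on the same strand (x axis, 0 to 20), in the central 300 bases (red) and in windows 10 kb away (grey, mean of both sides). The bar at 8 bases reaches 191 and that at 7 bases 82, while all others are at 47 or under.

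The composite element was more frequent in members than in gene-body sites, by 3.42 percentage points (21.0% and 17.5%, Fisher's exact test over 3751 sites, two-sided, p = 0.0118, adjusted p = 0.0189), and than in promoter sites, by 6.24 percentage points (21.0% and 14.7%, 1855 sites, p = 0.00139, adjusted p = 0.00557). Both calls were lost where sites had to be called in 7 or more of the 10 libraries (adjusted p = 0.0898 and 0.117, Fisher's exact test), and the call against promoters also without library 580 (4.09 percentage points, adjusted p = 0.0826). AGATAA alone was in 58.7% of members and 55.2% of gene-body sites, a difference of 3.45 percentage points that missed the threshold after adjustment (p = 0.0440, adjusted p = 0.0503, Fisher's exact test) and passed it without library 580, 583, 672, 673, 674, 703, 704 or 707 (3.71 to 5.04 percentage points). Sites near each other and sites of shared sequence are not independent, so these tests over sites describe the called sites and not replicate libraries.

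Among the members the composite element followed rank loosely. It was in 15.0%, 20.1%, 25.4% and 23.4% of the classes from the lowest to the highest rank, and in 23.6% of members called in all 10 Pass libraries. AGATAA did not follow rank, at 59.4%, 58.6%, 58.6% and 58.1% of the same classes. Of the 10 members ranked highest, 3 held the composite element.

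The rule did not use the other CTCF libraries, and they rarely called the members. Since the rule removed sites with a peak in library 695 of the same line, low shares in the line are given as a description. Each of the 13 other CTCF Pass libraries of the line called 0.0782% to 1.88% of members. For gene-body sites, filtered on library 695 in the same way, the range was 0.0404% to 1.78%. Together these libraries called 35 members (2.74%, against 7.68% of all recurrent sites, which include those removed for a CTCF peak in library 695). In primary cells at least 1 library called CTCF at 68 members (5.32%, against 10.6% of all recurrent sites, again with the removed sites included). The highest share was in CFUMk (3.29%), whose list was the longest with 36481 peaks. The ERY lists, of 8284 and 6629 peaks, gave 0.156% and 0.235%. Over the 11 primary libraries members were called at 1.03% and gene-body sites at 0.768% on average, a difference of 0.263 ± 0.36 percentage points (SD, n = 11, higher in 8 of 11, exact sign-flip permutation test, two-sided, p = 0.0361, adjusted p = 0.0482). With all transcripts of coding genes counted the difference was 0.471 percentage points. The libraries of 1 cell type are not independent, and this call was lost without the sites that share sequence (0.186 percentage points, adjusted p = 0.0502, exact permutation test), without Pass library 436, 580, 583, 672 or 673 (0.178 to 0.215 percentage points) and without any of 8 of the 11 primary libraries (0.202 to 0.273 percentage points). In the large family 8 of the 26 members had a primary CTCF peak. CTCF was called in none of these 24 lists at 1194 members.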

How the data were processed

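Peak lists of 19 TAL1 and 25 CTCF libraries were used. Per the labels and the study's methods, reads were aligned to mm10 with Bowtie (1.0.0 in the submitters' processing notes) and peaks were called per library with MACS. The deposited lists give each peak's fold enrichment (a ratio over background) and −log10 p, as the authors' caller wrote them. They hold no read counts, so depth is unknown. The input libraries and the Low pass and Fail CTCF lists of the line were not used here. The CMP and GMP libraries, 1976 and 1977, were assessed as Low pass and were kept among the primary cell libraries.

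Peaks with −log10 p of at least 5 were merged and classed with GENCODE vM21 coding genes. Site centres, medians of the peak midpoints, were searched in RefSeq GRCm38.p6 with Python 3.11.15, pandas 2.3.3, numpy 2.4.6 and scipy 1.17.1. Shares were compared over libraries by exact permutation tests and over sites by Fisher's exact test, and 8 p-values were Benjamini-Hochberg adjusted together. Scripts were tested on simulated data. Named sites were the 10 highest ranked among members called in all 10 Pass libraries, and the member nearest to each listed erythroid gene. The 5 largest groups, the 5 most distant members and those most often called in Fail libraries were also named. A withheld result is not reported here. Members, lists and rules were chosen with earlier results of these data known. Alternatives were stricter recurrence and p, other distances, annotation, windows and gaps, and leaving out each library.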

Additional observations from a re-analysis of the deposited data

How the results depend on the processing

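Over 226 alternatives, 179 left a result's direction and side of the threshold as given. Leaving out each Pass library other than 436, and leaving out sites that share sequence, were chosen after seeing the data. Members numbered 534 when all 10 Pass libraries had to call a site, 773 with −log10 p of at least 10, and 1126 to 1270 without 1 Pass library, with 125 to 148 groups. With −log10 p of at least 10, the share called differed from gene-body sites by -0.226 percentage points. Without 1 Pass library that difference was -0.0174 to 0.41, and without 1 tested library 0.142 to 0.594. With all transcripts of coding genes it was 0.847 (adjusted p = 0.0547, exact permutation test). Against promoters it was -0.455 at 5000 bp and -2.55 in Low pass libraries only, where 4 libraries cannot pass the threshold, and -2.07 to -1.49 with 1 library left out (-1.47 without library 436). The Low pass excess over Fail was 43.2 in sites called in 7 libraries, 65.2 in 10, and 27.3 to 38.4 with 1 library left out. The composite element's excess over gene-body sites lost its call in sites called in 7 libraries (2.96) or 10 (3.64), at −log10 p of 10 (3.71), at 5000 bp (2.37) and as CTG, 6 to 9 bases, GATAA (1.61), and was 3.17 to 3.59 without 1 Pass library. Its excess over promoters lost it in 7 libraries (3.79), 10 (3.75) and at −log10 p of 10 (3.76), and was 4.09 to 6.22 without 1 Pass library. AGATAA passed the threshold in 7 libraries (4.57), 10 (6.24), with all transcripts (3.83), windows of 200 bp (4.14) or 600 bp (3.68) and without sites that share sequence (4.31), and was 3.29 to 5.04 without 1 Pass library. The CTCF excess in primary cells lost its call in 7 libraries (0.189), 10 (0.179), without any CTCF Pass peak of the line (0.186), without library 436 (0.185), with 200 bp shared (0.24) and without sites that share sequence (0.186). It was 0.471 with all transcripts of coding genes (adjusted p = 0.0127, exact permutation test), 0.178 to 0.312 without 1 Pass library and 0.202 to 0.315 without 1 primary library. The excess of mostly repeat sites kept its call throughout, at 3.36 to 4.0 without 1 Pass library. The causes were not tested. The lists hold no depth, so sites missing from a list may be below its reach. Kinds of site were compared within each library. No pairing of Low pass with Fail libraries was fitted, since the labels give no number, batch or culture that libraries share.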
